A study of Gallus gallus with 2 samples.

Results

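The 7 genes analysed here build the mechanotransduction channel and the tip link of sensory hair cells (HCs), and were measured by RNA-seq in the chick basilar papilla (BP), the auditory epithelium of birds. They were TMC1, TMC2, LHFPL5, TMIE, CIB2, CDH23 and PCDH15, taken by symbol, and all 7 were found among 23842 genes. Explants came from male Momiji chicks at posthatch day 1. The SM0 library was made before any exposure to streptomycin (SM), an antibiotic of the aminoglycoside class, which is toxic to HCs. The post-SM6 library was made after 48 h of SM and 6 h of further culture without it, 54 h after the start. For both libraries thermolysin was used to remove surrounding tissue such as the tectorial membrane, yet markers of neurons and mesenchyme were found in both. Each time point had 1 library of RNA pooled from 50 BPs. There was thus no replicate, no SD and no p-value for any difference, and no library of explants cultured for the same time without SM was among those analysed here, nor were libraries taken during SM exposure. What SM did, what time in culture did and how the pools of chicks differed cannot be told apart.

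HCs turn sound into electrical signals at the stereocilia of the hair bundle. A fine filament, the tip link, joins the tip of each shorter stereocilium to its taller neighbour, and its tension opens the channel at the lower end. From studies of mice and zebrafish, cadherin-23 (CDH23) forms the upper part of the tip link and protocadherin-15 (PCDH15) the lower part. TMC1 and TMC2 form the pore, and in the mouse cochlea TMC2 is present early and TMC1 persists in mature HCs. LHFPL5 couples PCDH15 to the channel, TMIE is needed for its gating and CIB2 is a calcium-binding partner of the TMC proteins. CIB2, CDH23 and PCDH15 are also expressed outside the inner ear.

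Expression was given as TPM, the share that a gene takes of all transcripts, corrected for transcript length and scaled to the same total in each library, so levels of different genes can be compared within a library. Changes are given as the log2 ratio of post-SM6 to SM0 after adding 0.1 TPM to both, which makes the change of a gene near or under 1 TPM look smaller than it is. Of the 7 genes, 6 were lower at post-SM6 by at least 1.3-fold, the fold that the study asks of a differentially expressed gene, and 1, TMC1, was higher. Expressed genes, here those that reached 1 TPM in at least 1 library, numbered 13321, and 23.3% of them were lower and 23.9% higher by that fold. All 6 decreases also passed 2-fold, as did 7.83% of expressed genes in that direction. TMIE and CDH23 reached 1 TPM at SM0 only, and any expressed gene kept through SM0 alone can only be lower at post-SM6. At a stricter 4-fold, 4 of the 7 were lower against 2.91% of expressed genes. Genes that start high have more room to decrease, and 5 of the 7 were above 10 TPM before SM. Of these 5, 3 were lower by 4-fold, against 1.81% of all 8234 genes that started at 10 TPM or more. Both counts at 4-fold depend on the added 0.1 TPM. With 1 TPM added, PCDH15 (log2 change -1.81) and TMIE (-1.23) did not reach 4-fold, and the shares of all genes were not recomputed. The median log2 change of the 7 genes was -2.08, and that of the 13321 expressed genes was -0.02.

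TMC2, a pore-forming subunit (gene ID 428456), had 62.0 TPM before SM and 2.17 TPM at post-SM6. It was the second most abundant of the 7 genes before SM, and its level at post-SM6 was 28.6-fold lower, with a log2 change of -4.77. A lower log2 change was found for 0.195% of the 13321 genes. TMC1, the other pore-forming subunit (gene ID 427255), had 1.26 TPM before SM and 1.89 TPM at post-SM6. This was a log2 change of 0.55, but both values were low, and with 1 TPM added in place of 0.1 the change of 0.35 no longer reached 1.3-fold. TMC2 exceeded TMC1 by 49.2-fold at SM0 and by 1.15-fold at post-SM6. Between the libraries TMC2 differed by 59.9 TPM and TMC1 by 0.63 TPM. Summed over both genes, pore transcripts went from 63.3 to 4.06 TPM, which left 6.41% of the level at SM0.

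The auxiliary subunits differed widely from one another. CIB2 (gene ID 415363) had the highest TPM of the 7 genes in both libraries, with 147 TPM before SM and 54.5 TPM at post-SM6. Its log2 change of -1.42 was the smallest of the 6 decreases, and 37.2% of its level was left. LHFPL5 (gene ID 378916), the link between tip link and channel, had 53.0 TPM before SM and 14.9 TPM at post-SM6 (log2 change -1.82), which left 28.1%. At SM0 it was close to TMC2, at 0.855 of its TPM, and at post-SM6 it stood 6.87-fold above it. TMIE (gene ID 769596) was low even before SM, with 1.46 TPM, and had 0.05 TPM at post-SM6. Deposited values in this range move in steps of 0.01 TPM, so the post-SM6 level of TMIE rests on 5 such steps, and the log2 change of -3.38 ran from -4.61 to -1.23 between added values of 0.01 and 1 TPM.

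**Figure D1:**
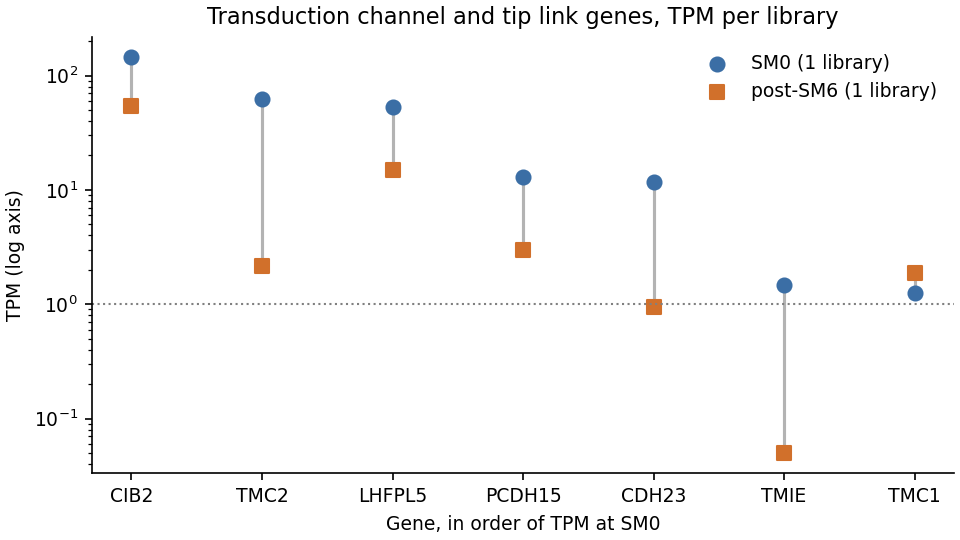
TPM of the 7 genes on a log axis, in order of their level at SM0, with 1 point per library (circles, SM0; squares, post-SM6) and a dotted line at 1 TPM. The longest drops are those of TMC2, from 62.0 to 2.17 TPM, and TMIE, from 1.46 to 0.05 TPM, and TMC1 alone lies higher at post-SM6.

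Of the tip link cadherins, CDH23 (gene ID 423718) had 11.7 TPM before SM and 0.95 TPM at post-SM6, and PCDH15 (gene ID 423644) had 13.1 TPM and 3.01 TPM. Before SM the genes for the upper and the lower part of the link were thus at similar levels, with 0.898 CDH23 transcripts per PCDH15 transcript. At post-SM6 the ratio was 0.316. CDH23 was 12.4-fold lower, with a log2 change of -3.50 (-2.71 with 1 TPM added), and PCDH15 was 4.35-fold lower, with -2.08. The ratio compares shares of transcripts summed over isoforms, and RefSeq (GRCg7b) lists 12 transcripts of CDH23 and 8 of PCDH15. Which isoforms were present was not analysed here.

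The order of the 7 genes also differed between the libraries. At SM0 it was CIB2, TMC2, LHFPL5, PCDH15, CDH23, TMIE and TMC1, and at post-SM6 it was CIB2, LHFPL5, PCDH15, TMC2, TMC1, CDH23 and TMIE. With 1 library each, it cannot be said which neighbours in these orders differ beyond the spread of replicates. The summed TPM of the 7 genes was 289 at SM0 and 77.5 at post-SM6, or 26.8% of the earlier sum. CIB2 made up 50.7% of the sum at SM0 and 70.4% at post-SM6, while the share of TMC2 went from 21.5% to 2.80%. LHFPL5 kept a similar share, with 18.3% and 19.2%, and PCDH15 did as well, with 4.52% and 3.88%. The smallest shares at SM0 were those of TMIE, with 0.505%, and TMC1, with 0.436%.

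**Figure D2:**
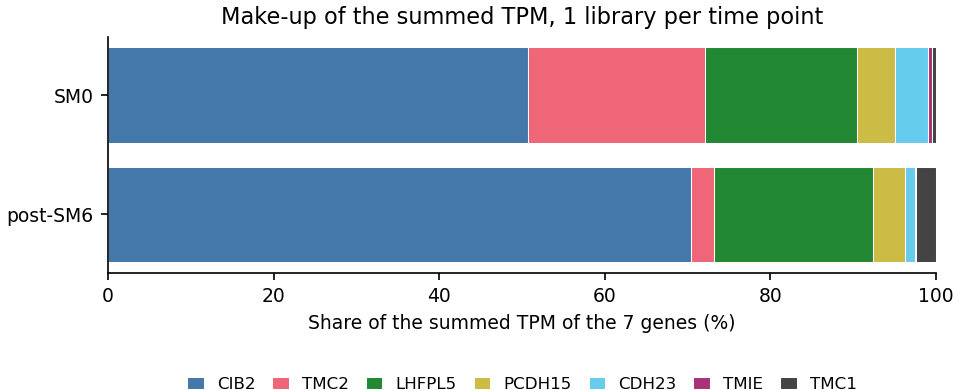
Share of each gene in the summed TPM of the 7 genes, in percent, with 1 bar per library. The TMC2 segment shrinks from 21.5% to 2.80%, the CIB2 segment widens from 50.7% to 70.4%, and the LHFPL5 segment stays near 18.3% and 19.2%.

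To place these values among transcripts of HCs, a list of 20 HC markers that holds none of the 7 genes was used. Of these, 18 were found and 17 were expressed. In that list 15 markers were lower by at least 1.3-fold, against 23.3% of expressed genes. The list was chosen with earlier results of these data known, so this count is no independent support. GRXCR1 and CACNA1D reached 1 TPM at SM0 only and could only be lower. Of the others, 1 was higher and 1 was within that fold, and the median log2 change of the 17 was -2.90. The post-SM6 library is labelled as supporting cells, but it was made from RNA of 50 pooled BPs, and markers of other cell types were found in it. The 17 HC markers ranged there from 0.37 TPM for GRXCR1, a stereociliary protein, to 218 TPM for CALB2. Their median was 5.78 TPM with 2 markers under 1 TPM, against a median of 38.2 TPM before SM. TMC2 had a lower log2 change than all 17 markers, the lowest of which was OCM (oncomodulin, a calcium buffer) with -4.47, but with 1 TPM added OCM was lower than TMC2 (-4.46 and -4.31). CDH23 lay 0.59 below the median of the markers, and 6 of 17 markers were lower (7 with 1 TPM added). The place of TMIE among the markers could not be fixed, since 6 of 17 were lower with 0.1 TPM added, 14 with 1 TPM and 0 with 0.01 TPM. PCDH15, LHFPL5 and CIB2 lay above the median by 0.82, 1.08 and 1.48, and 14 of 17 markers were lower than each of them. Of the markers, 2 were above their SM0 level, CALB2 (calretinin) at 861% and SLC26A5 (prestin) at 105%, and TMC1 at 150% lay between these. In bulk RNA a loss of HCs and a lower level of a transcript in any HCs that might remain cannot be told apart.

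**Figure D3:**
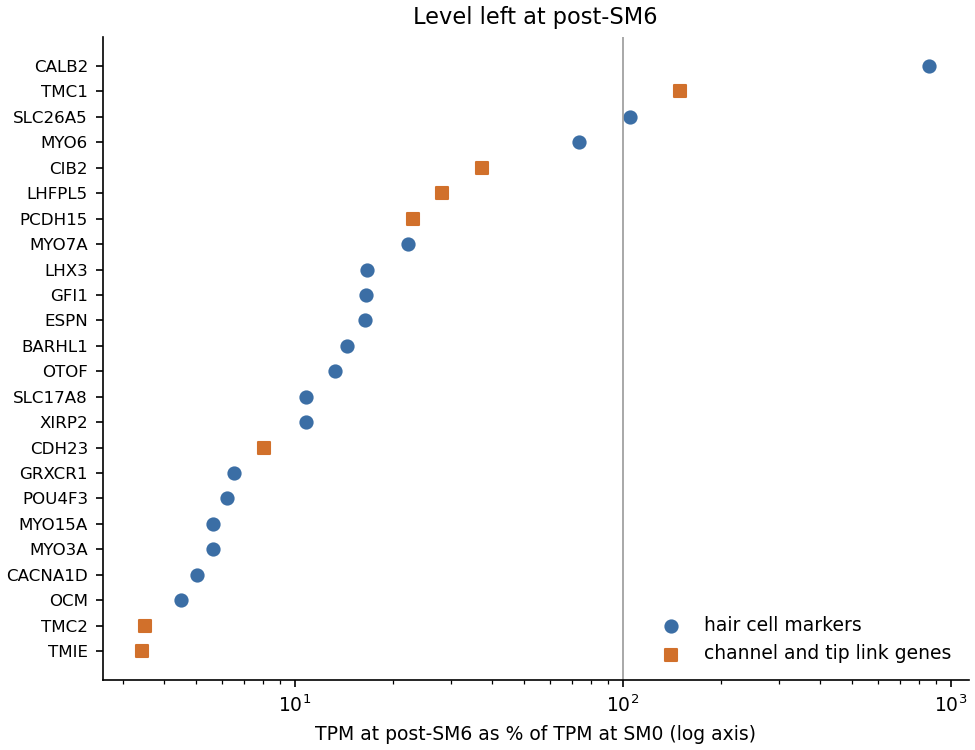
TPM at post-SM6 as a percentage of TPM at SM0 on a log axis, 1 point per gene, for the 7 channel and tip link genes (squares) and the 17 HC markers (circles). No TPM was added here. TMIE and TMC2 lie lowest at 3.42% and 3.50%, but TMIE rests on 0.05 TPM at post-SM6 and its place is not fixed. CDH23 is among the HC markers at 8.09%. PCDH15, LHFPL5 and CIB2 lie above most of them at 23.0% to 37.2%, and TMC1 at 150% is right of the line at 100%.

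MYO7A, the motor protein that marks HCs in histology, served as a second scale, although it is itself 1 of the 17 HC markers. Its log2 change of -2.16 was a smaller decrease than the median of -2.90 of those markers. The ratios below depend on this choice of gene. It had 39.4 TPM before SM and 8.74 TPM at post-SM6. PCDH15 was at 33.2% of MYO7A before SM and at 34.4% at post-SM6, so both genes were lower by a similar factor. TMC2 went from 158% to 24.8% of MYO7A, CDH23 from 29.8% to 10.9% and TMIE from 3.71% to 0.57%. The other 3 genes were higher relative to MYO7A at post-SM6, CIB2 with 372% and 624%, LHFPL5 with 135% and 171% and TMC1 with 3.20% and 21.6%.

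Other proteins deliver the channel to the stereocilia, anchor the tip link or build the other links of the bundle. A list of 22 such genes was matched for 20, all expressed. Of these, 16 were lower by at least 1.3-fold, none was higher and 4 were within that fold, against the 23.3% lower among expressed genes, and the median log2 change was -2.25. MYO7A and MYO15A are in this list and in that of the HC markers, so the lists are not separate. Both lists were chosen with earlier results of these data known. Some of the 16, such as USH1G, CLRN2 and MINAR2, reached 1 TPM at SM0 only and could only be lower.

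TOMT, which brings TMC proteins to the hair bundle in zebrafish and mice, is listed as LRTOMT in the deposited files and had 92.1 TPM before SM and 7.84 TPM at post-SM6 (log2 change -3.54). LOXHD1, a stereociliary protein that mouse HCs need for transduction, had 39.8 and 4.89 TPM. At the upper end of the tip link, CDH23 binds a complex of MYO7A, harmonin (USH1C) and SANS (USH1G). Of these, USH1G had 3.04 TPM before SM and 0.36 TPM at post-SM6, whereas USH1C had 69.5 and 72.8 TPM, a log2 change of 0.07. CDH23 and USH1C, whose proteins bind each other, thus stood at -3.50 and 0.07.

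ADGRV1, a large receptor of the ankle links that join stereocilia near their base, had 9.63 and 1.70 TPM. Its scaffolds were lower by less, WHRN with 6.61 and 2.33 TPM and PDZD7 with 103 and 45.1 TPM. PTPRQ, which forms the shaft connectors between stereocilia, had 15.5 and 3.16 TPM. CLRN2, a membrane protein that maintains the bundle, had 7.34 and 0.27 TPM and showed the lowest log2 change of the 20, at -4.33. Its relative CLRN1 had 4.33 and 3.35 TPM and was within 1.3-fold, as were EPS8, an actin regulator at stereociliary tips, with 71.3 and 60.6 TPM, and MYO1C, a myosin once proposed as the adaptation motor, with 32.1 and 36.0 TPM. ATP2B2, the calcium pump that clears calcium entering through the channel, had 8.90 and 4.04 TPM. Others of the list that were lower include GIPC3, a scaffold that mouse HCs need for hearing, with 57.7 and 5.43 TPM, ELMOD1, a regulator of small GTPases in the bundle, with 82.9 and 17.4 TPM, and MINAR2, listed as KIAA1024L, with 3.44 and 0.50 TPM.

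**Figure D4:**
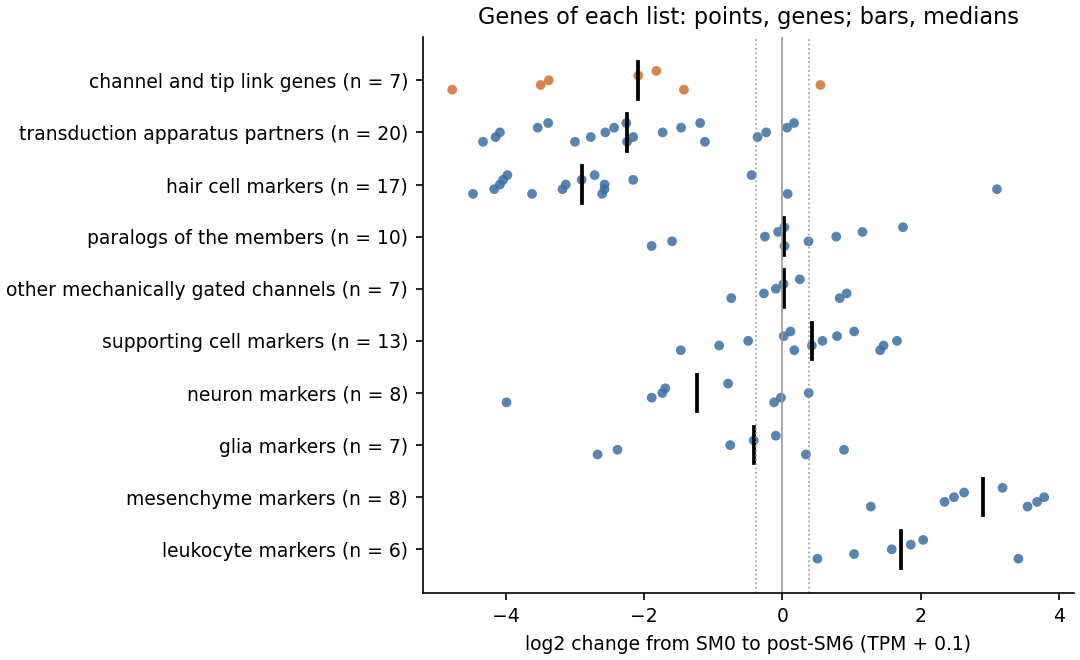
Log2 change from SM0 to post-SM6 with 0.1 TPM added, 1 point per expressed gene, a black bar at each list's median and dotted lines at 1.3-fold. The 7 channel and tip link genes (median -2.08), their partners (-2.25) and HC markers (-2.90) lie to the left, whereas paralogs (0.03) and other mechanically gated channels (0.02) are around 0 and mesenchyme markers (2.90) lie to the right.

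Close relatives of the 7 genes were found on both sides of 0. Of 14 listed paralogs, 10 were found, with a median log2 change of 0.03. Of these 10, 2 were lower by at least 1.3-fold, 3 were higher and 5 were within that fold. These counts were near the shares among expressed genes, of which 23.3% were lower and 23.9% higher. TMC6 had 23.5 TPM before SM and 22.5 TPM at post-SM6 and TMC3 had 1.79 and 1.83 TPM. Among the 6 TMC genes found in the files, TMC6 was thus the most abundant at post-SM6, and TMC2 was at SM0. TMC5 had 3.24 and 0.80 TPM, a log2 change of -1.89. CIB1, a widely expressed relative of CIB2, had 242 and 247 TPM, so CIB2 went from 0.606 to 0.221 of its level. CIB3, which can take the place of CIB2 in vestibular HCs of mice, had 1.16 TPM before SM and 2.06 TPM at post-SM6. In the LHFPL family, LHFPL4 had 7.43 and 2.39 TPM, while LHFPL3 had 5.72 and 12.9 TPM. The gene listed as LHFP (gene ID 418889), which RefSeq calls LHFPL1, had 13.0 and 43.8 TPM, the highest log2 change of the 10 with 1.74. Its deposited and RefSeq names differ, and LHFPL6 was not found, so which family member this gene is was not settled here.

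Markers of other cell types also differed between the libraries. Their counts past 1.3-fold stand beside the 23.3% of expressed genes that were lower and the 23.9% that were higher. All 8 mesenchyme markers were higher at post-SM6, their summed TPM going from 36.3 to 373, and all 6 leukocyte markers found were higher, with sums of 38.5 and 122. Of 8 expressed neuron markers, 5 were lower and 1 was higher, and the sum over all 10 was 564 and 235 TPM, with STMN2 at 0 at post-SM6. The 7 glia markers summed to 501 and 455 TPM, with 4 lower and 1 higher. The 13 supporting cell markers summed to 5633 and 5509 TPM, with 7 higher and 3 lower, and their median log2 change was 0.43. Abundant genes set these sums, since TECTB had 3950 and 2802 TPM and GJB6, which went the other way, had 469 and 1292 TPM. The similar sums thus do not show that the single markers were steady. None of the other markers was at 0 in either library. The part of these cell types in the values of the 7 genes was not tested.

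The genes nearest to each of the 7 were found by the distance between log2 levels, over just 2 libraries and leaving the 7 themselves out. For TMC2 they were TMPRSS7 (44.9 and 2.83 TPM), B3GNTL (49.4 and 3.10 TPM) and MYO15A (38.2 and 2.16 TPM), a myosin that carries proteins to stereociliary tips. All 3 were farther from TMC2, at distances of 0.594 to 0.697, than any of the nearest genes of LHFPL5, CIB2 or PCDH15 were from those. LHFPL5 was nearest to RGCCL (53.4 and 14.3 TPM), then to MYO1H (51.6 and 15.4 TPM) and PERP1 (49.0 and 15.6 TPM). For PCDH15 they were SMPX (11.6 and 3.16 TPM), the Notch ligand DLL4 (11.2 and 2.92 TPM) and PTPRQ, and for CDH23 they were ANKDD1B (12.0 and 1.02 TPM), C4H4ORF50 and FAM78A. CIB2 lay nearest to the histone gene HIST1H2A4L3, the proton pump subunit ATP6V0A1 and the neuronal kinesin KIF1A, with 159 and 57.5 TPM. TMIE lay nearest to C11ORF88, the glutamate receptor subunit GRIN1 and CTSG, and TMC1 to FRMPD1, EFHC2 and TIMP4, all of them at low TPM. Distances ran from 0.0346 to 0.0510 for TMC1, from 0.0506 to 0.137 for CIB2, from 0.0647 to 0.133 for LHFPL5, from 0.180 to 0.252 for PCDH15, from 0.0976 to 0.445 for CDH23 and from 0.357 to 0.561 for TMIE. The distance to the nearest genes was thus largest for TMC2 and smallest for TMC1.

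In the RefSeq annotation of GRCg7b, the spans of TMC1, TMC2 and LHFPL5 overlap no other gene. TMIE overlaps the gene listed as ALS2CL, which had 16.1 TPM before SM and 19.7 TPM at post-SM6. CIB2 overlaps TBC1D2B (14.5 and 11.8 TPM), and CDH23 overlaps LOC423719 (0.85 and 5.33 TPM) and VSIR, listed as C6H10ORF54 (3.69 and 7.08 TPM). The long gene PCDH15 overlaps 8, of which 2 had values here, SIRT1 with 32.9 and 41.6 TPM and LOC107053623 at 0 in both. None of the overlapping genes with values was lower by 1.3-fold or more. The part of overlapping reads in the changes of the 7 genes was not tested. The sources used here do not say that strand was used in counting, so reads of overlapping genes might not be told apart. The values of TMIE, CIB2, CDH23 and PCDH15 carry that uncertainty. Reads were aligned to GRCg6a, in which the overlaps of all 7 genes may differ from those given here.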

How the data were processed

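RNA-seq of 2 libraries was used, SM0 and post-SM6, each from 50 pooled BPs. The authors removed ribosomal reads with Bowtie2 2.1.0, aligned the rest to GRCg6a with STAR 2.7.1a and estimated expression with RSEM 1.3.0 (versions per the submitters' processing notes), and deposited it as TPM per gene. TPM carry no sequencing depth, and the read counts of the 7 genes were not used here, so no counting error or detection limit is given. From the TPM, log2((post-SM6 + 0.1) / (SM0 + 0.1)) was computed. Counts past 1.3-fold were made over the 13321 genes that reached 1 TPM in at least 1 library. No test was possible with 1 library per time point. Values were counted as moved by an alternative when they changed by over 1.5-fold or crossed 1.3-fold.

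The 7 genes and all gene lists were chosen with earlier results of these data known. Listed symbols were matched to the deposited symbol, then to the current symbol or synonym in RefSeq (GRCg7b), which held 19594 of 23842 IDs and all 7 genes. Of 2 genes deposited as POU4F3, the one that RefSeq calls POU4F3 was used. Named are the 7 genes, the 3 nearest to each, members of the 3 lists of related genes, overlapping genes, and markers that are at 0, lowest or highest, or of which the values were seen first. In the list of bundle partners, 1 gene counts toward the totals but is not reported here by itself. Alternatives were other pseudocounts (1 and 0.01 TPM), scalings, minimums of TPM (none and 5) and folds (2 and 4). The code was tested on simulated data. Python 3.11.15, numpy 2.4.6, pandas 2.3.3 and matplotlib 3.10.9 were used.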

Additional observations from a re-analysis of the deposited data

How the results depend on the processing

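Of 66 values recomputed under the alternatives, 58 did not count as moved, and no log2 value changed sign. The 66 include counts of genes, which have no sign and no side of 1.3-fold, and medians, for which that side was not checked. A count of 4 in place of 6 was still within 1.5-fold. Leaving out the minimum of TPM could change no value of the 7 genes, which all reached it. With a pseudocount of 1 TPM, the log2 change of TMC1 was 0.35, that of TMIE -1.23 and that of CDH23 -2.71, and the log2 ratio of TMC2 to TMC1 at SM0 was 4.80 in place of 5.51. With 0.01 TPM, the log2 change of TMIE was -4.61. The number of HC markers lower than each gene was recomputed after seeing the data, and it moved for TMIE (6 to 14 or 0) and TMC2 (0 to 1). The log2 change of TMC2 ran from -4.83 to -4.31, PCDH15 from -2.12 to -1.81, LHFPL5 from -1.85 to -1.76 and CIB2 from -1.45 to -1.39 over pseudocounts and scalings. The number of lower genes was 6 with each pseudocount, each scaling, no minimum of TPM and a fold of 2. It was 5 with a minimum of 5 TPM, which leaves out TMIE and TMC1, and 4 at a fold of 4. The count at a fold of 4 was made with 0.1 TPM added, and with 1 TPM added PCDH15 and TMIE did not reach that fold. Either scaling moved the median of all genes by at most 0.03. No paired analysis was possible because each time point has 1 library. TPM keep no depth, so no counting error is given for values near or under 1 TPM (TMC1, TMIE, CDH23 at post-SM6).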

Other observations

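Of 8 genes for other mechanically gated or related ion channels, 7 were found, and 4 of them stayed within 1.3-fold. Of the 13321 expressed genes 7028 did so, while 23.3% were lower and 23.9% higher. The median log2 change of the 7 channel genes was 0.02. PIEZO2, a touch channel that in mouse HCs carries a current separate from that of the tip links, had 9.74 TPM before SM and 11.6 TPM at post-SM6, so it was below TMC2 before SM and above it at post-SM6. PIEZO1 had 25.6 and 15.3 TPM and was the 1 gene of the 7 that was lower. TMEM63A (7.61 and 13.6 TPM) and TMEM63C (13.8 and 26.4 TPM), of a family of osmotically gated channels, were higher. MCOLN3, a lysosomal channel whose mutation damages HCs in mice, had 23.8 and 19.7 TPM, and TRPV4, an osmotically sensitive channel, had 25.3 and 25.6 TPM.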
